A study of Zea mays with 9 samples.

Results

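The high-affinity nitrate transporter genes NRT2.1 (Zm00001d054057), NRT2.2 (Zm00001d054060) and NRT2.5 (Zm00001d011679) of maize were followed in root apices under 3 nitrogen treatments. They were chosen by identifier with earlier results of these data known, so their place among all genes is a description only. They are 3 of the 45260 genes with a value, and all 3 are present in the deposited table. Seedlings of the inbred line B73 were germinated for 3 days, kept in a solution without nitrogen, and then grown for 24 h in one of the treatment solutions. The −N solution held no nitrogen, the +NO3− solution held 1 mM nitrate, and the +NO3− + cPTIO solution held 1 mM nitrate with 1 mM cPTIO, a compound that scavenges nitric oxide (NO). The comparisons address which part of the response to nitrate is altered when the scavenger is added. The values hold no measure of NO. The authors state that cPTIO does not always scavenge NO fully. They add that, in earlier work on nitrate-supplied maize roots, it significantly lowered NO in the primary root apex. Apices of pooled seedlings were used for RNA extraction, and 3 libraries are listed for each treatment. By their labels, the −N and +NO3− libraries were re-analysed from earlier work and the cPTIO libraries were not, so an effect of the scavenger and a difference between these sets of libraries cannot be told apart. Expression is given as RPKM, the read count scaled to transcript length and to sequencing depth, with a single pooled value per gene and treatment. Depth was adjusted by quartile normalization rather than by the total reads of a library. The spread between libraries is therefore unknown, no test was made here on any difference, and fold changes have no replicate check. The study itself tested pairwise differences over its libraries, and those test results were not used. In whole apices, a lower value from fewer expressing cells and one from less RNA per cell cannot be told apart.

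Proteins of the NRT2 family carry nitrate across the plasma membrane together with protons and serve uptake when nitrate in the medium is scarce. In Arabidopsis, NRT2.1 carries much of the high-affinity uptake of the root, is induced by nitrate, is repressed when nitrogen is ample, and works with the partner protein NAR2.1 (NRT3.1). Arabidopsis NRT2.5 is known instead for its expression in nitrogen-starved plants. After entry, nitrate is converted to nitrite by nitrate reductase, an enzyme that can also produce NO, and nitrite is converted to ammonium by nitrite reductase.

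The NRT2 transcripts differed in how they stood across the treatments. NRT2.5 was the most abundant of them in −N and in +NO3− and the least abundant in +NO3− + cPTIO. NRT2.1 was lowest with nitrate alone and highest when the scavenger was added to nitrate. NRT2.2 was under 0.1 RPKM in every treatment.

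NRT2.1 had an RPKM of 0.357 in −N, 0.0979 in +NO3− and 1.17 in +NO3− + cPTIO. It was thus 3.64-fold lower with nitrate than without nitrogen, a log2 ratio of −1.86. With cPTIO it was 11.9-fold higher than with nitrate alone, a log2 ratio of 3.58, and 3.28-fold higher than in −N, a log2 ratio of 1.71. The value under the scavenger therefore did not stop at the −N level but stood above it.

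NRT2.2 had an RPKM of 0.0115 in −N, was listed at 0 in +NO3−, and had 0.0867 in +NO3− + cPTIO. No ratio can be formed with the value at 0. Between +NO3− + cPTIO and −N the log2 ratio was 2.92, a 7.55-fold difference between very small values. The order of the treatments was that of NRT2.1, at levels that were 3.22% of NRT2.1 in −N and 7.41% in +NO3− + cPTIO.

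NRT2.5 had an RPKM of 1.93 in −N, 0.385 in +NO3− and 0.0491 in +NO3− + cPTIO. With nitrate alone it was 4.99-fold lower than in −N, a log2 ratio of −2.32. Under the scavenger it was a further 7.85-fold lower than with nitrate alone, a log2 ratio of −2.97. Against −N the combined difference amounted to 39.2-fold, a log2 ratio of −5.29. NRT2.1 and NRT2.5 were thus both lower with nitrate alone, and they lay on opposite sides of the nitrate value when cPTIO was present.

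**Figure D1:**
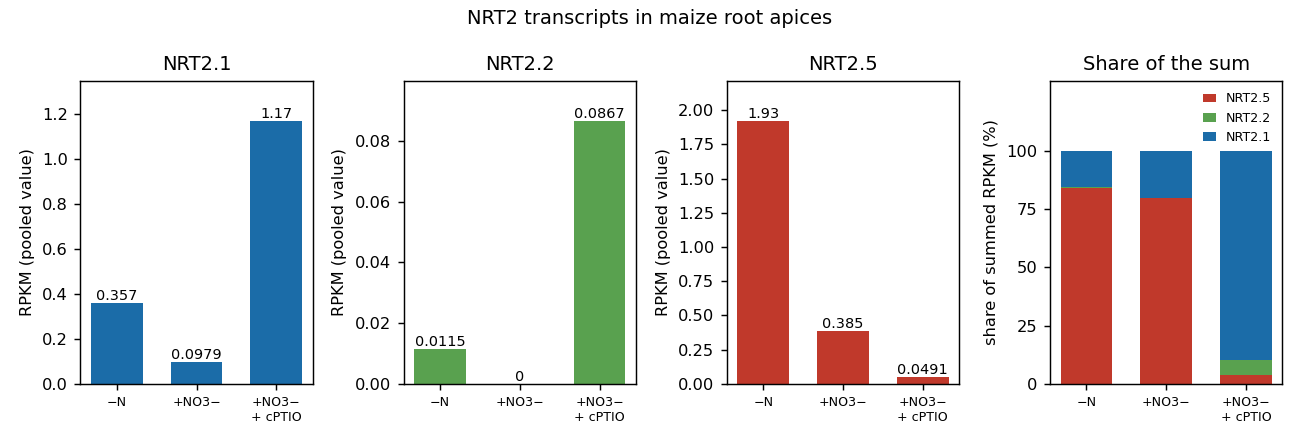
Pooled RPKM of NRT2.1, NRT2.2 and NRT2.5 in the 3 treatments (bars from 0, a separate scale in each panel, no error bars because each treatment has a single value), and the share of each gene in the summed RPKM (%). NRT2.1 was highest in +NO3− + cPTIO at 1.17, NRT2.5 was highest in −N at 1.93, and NRT2.1 took 89.6% of the sum in +NO3− + cPTIO.

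RPKM is scaled by gene length, so the members can be set beside each other within a treatment. Their summed RPKM was 2.29 in −N, 0.483 in +NO3− and 1.30 in +NO3− + cPTIO. NRT2.5 made up 83.9% of this sum in −N and 79.7% in +NO3−, but 3.76% in +NO3− + cPTIO. NRT2.1 made up 15.6%, 20.3% and 89.6%, in the same order. NRT2.2 accounted for 0.501% in −N and 6.64% in +NO3− + cPTIO. The RPKM of NRT2.5 was 5.40 times that of NRT2.1 in −N and 3.94 times in +NO3−, whereas in +NO3− + cPTIO that of NRT2.1 was 23.8 times that of NRT2.5. NRT2.5 hence led the NRT2 transcripts in −N and +NO3−, and NRT2.1 led them under the scavenger. The sum was 4.74-fold lower in +NO3− than in −N and 2.70-fold higher in +NO3− + cPTIO than in +NO3−. It was 1.76-fold lower in +NO3− + cPTIO than in −N, within the 2-fold limit.

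All of these levels were low for root apices. NRT2.5 in −N, the highest of the 9 values, exceeded 59.5% of all genes in the table, many of which are listed at 0, while the median was 12.5 RPKM among the 20324 genes that reached 1 RPKM in −N. NRT2.1 exceeded 49.4% of the genes in −N, 41.7% in +NO3− and 56.2% in +NO3− + cPTIO. NRT2.5 exceeded 48.4% in +NO3− and 40.3% in +NO3− + cPTIO. The smallest values above 0 among genes of similar span give an idea of the detection limit. The median of the 10 smallest was 0.00882 in −N, 0.00845 in +NO3− and 0.0142 in +NO3− + cPTIO, taken over genes whose span was within 10% of that of the member. NRT2.2 stood 1.30 times above this level in −N and 6.10 times above it in +NO3− + cPTIO. NRT2.5 stood 218 times above it in −N and 45.6 times in +NO3−, but only 3.45 times in +NO3− + cPTIO. For NRT2.1 the corresponding values were 40.4, 11.6 and 82.3. The value of NRT2.5 under cPTIO and those of NRT2.2 thus lay near the smallest that the table holds, and the sizes of their ratios are imprecise.

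The members were read against all genes, using the 2-fold limit of the study and a minimum RPKM of 1 in at least 1 of the conditions compared. Between +NO3− and −N, all 3 members were over 2-fold lower with nitrate, with NRT2.2 counted because it is listed at 0, and only NRT2.5 passed the minimum. Among all 21290 genes that passed it, 2.54% were over 2-fold lower, 5.24% were over 2-fold higher, and 7.78% were past 2-fold in either direction. A log2 ratio as low as that of NRT2.5, or a value of 0 in +NO3− alone, was found for 122 of them (0.573%). NRT2.5 passed the minimum only through its value in −N, so this share describes its rank and is not evidence of a response. Over the genes counted that were above 0 in both conditions, the median log2 ratio was 0.04, and the central 95% lay between −0.94 and 1.39.

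Between +NO3− + cPTIO and +NO3−, NRT2.1 and NRT2.2 were over 2-fold higher with cPTIO and NRT2.5 was over 2-fold lower. Of the 3, only NRT2.1 passed the RPKM minimum. Among 21617 genes, 7.08% were over 2-fold higher and 12.7% were over 2-fold lower, 19.8% in all. With genes at 0 in +NO3− alone included, 196 of them (0.907%) were as high as NRT2.1. NRT2.1 passed the minimum only through its value with cPTIO, so this share likewise describes its rank only. Above 0 in both conditions, the central 95% of log2 ratios lay between −2.13 and 1.85.

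Compared with −N, NRT2.1 and NRT2.2 in +NO3− + cPTIO were again over 2-fold higher and NRT2.5 was over 2-fold lower. NRT2.1 and NRT2.5 passed the minimum. Of 21312 genes, 8.33% were over 2-fold higher and 9.21% were over 2-fold lower, 17.5% in all. With genes at 0 in one condition included, 142 genes (0.666%) were as low as NRT2.5 and 888 genes (4.17%) were as high as NRT2.1. NRT2.5 passed the minimum only through −N and NRT2.1 only through +NO3− + cPTIO, so these shares too describe rank only. This comparison shares its values with the former ones and is not independent of them.

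Ratios scatter more widely at low levels, so each member was also placed among the genes of its own level class, set by the larger RPKM of the conditions compared. Genes listed at 0 in one condition were included here. For NRT2.5 against genes from 1 to under 10 RPKM, 88 of 9200 (0.957%) had as low a ratio between +NO3− and −N, where 4.26% were over 2-fold lower. Between +NO3− + cPTIO and −N it was 111 of 8871 (1.25%), where 13.3% were over 2-fold lower. For NRT2.1 in the same class, 116 of 8991 genes (1.29%) had as high a ratio between +NO3− + cPTIO and +NO3−, where 9.61% were over 2-fold higher. Few genes of this class were thus as far from 1 as these. NRT2.5 entered the class only through −N, at 1.93, and NRT2.1 only through +NO3− + cPTIO, at 1.17, near its lower edge. The class reaches up to 10 RPKM, where ratios scatter less, so rarity at the members' own level was not shown. Between +NO3− + cPTIO and −N, 553 of 8871 (6.23%) were as high as NRT2.1 and 12.1% were over 2-fold higher.

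Other ratios were more common in their class. In the class from 0.1 to under 1 RPKM, 467 of 5880 genes (7.94%) were as low as NRT2.1 between +NO3− and −N, and 14.6% were over 2-fold lower. In that class, 1019 of 5813 genes (17.5%) were as low as NRT2.5 between +NO3− + cPTIO and +NO3−, and 35.2% were over 2-fold lower. For NRT2.2, in the class from 0.01 to under 0.1 RPKM, 21.3% to 24.7% of the genes had a ratio as far in the same direction in each comparison, those listed at 0 included. Over 2-fold in that direction were 30.0% for +NO3− against −N, 29.5% for +NO3− + cPTIO against +NO3− and 34.2% for +NO3− + cPTIO against −N. The lower value of NRT2.5 under cPTIO than with nitrate alone, and the ratios of NRT2.2, were therefore matched by many genes of this level.

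**Figure D2:**
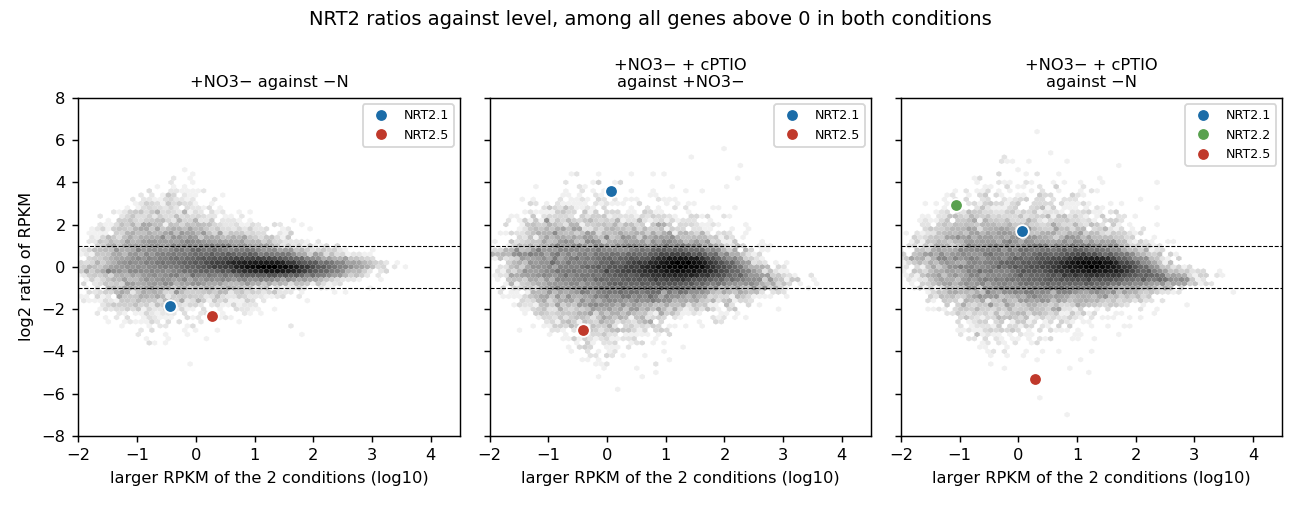
Log2 ratio of RPKM (vertical axis) against the larger RPKM of the conditions compared (horizontal axis, log10) for all genes above 0 in both conditions with a larger RPKM of at least 0.01, as grey density with darker shades for more genes. Coloured points are the NRT2 genes and dashed lines mark 2-fold. NRT2.1 at 3.58 in the middle panel and NRT2.5 at −5.29 in the right panel lie at the margin of the cloud, while NRT2.2 has no ratio where it is listed at 0.

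NRT2.1 and NRT2.2 lie side by side on chromosome 4 of the AGPv4 assembly, from 245638262 to 245639837 and from 245649221 to 245650796. Both span 1576 bases, 9383 bases separate them, and 0 other genes are listed between them or overlap any of the 3 members. In the RefSeq annotation of the later NAM-5.0 assembly nrt2.1 and nrt2.2 are likewise direct neighbours, with 0 genes between them. These genes are closely related copies, so reads can match both, and the division of reads between them is uncertain. Their sum does not depend on that division. It was 0.368 RPKM in −N, 0.0979 in +NO3− and 1.26 in +NO3− + cPTIO. The log2 ratios of the sum were −1.91 for +NO3− against −N, 3.68 for +NO3− + cPTIO against +NO3− and 1.77 for +NO3− + cPTIO against −N, close to those of NRT2.1 alone.

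The genes around the pair did not share its order of treatments. Zm00001d054056, 1140 bases before NRT2.1, and Zm00001d054062, the second gene beyond NRT2.2, are listed at 0 in all 3 treatments. Zm00001d027043, 2805 bases beyond NRT2.2, had an RPKM of 0.951, 1.13 and 1.27 in −N, +NO3− and +NO3− + cPTIO. Zm00001d054055, the second gene before NRT2.1, had 27.9, 10.8 and 10.5. It was lower with nitrate, as was NRT2.1, but its log2 ratio between +NO3− + cPTIO and +NO3− was −0.04, whereas that of NRT2.1 was 3.58. NRT2.5 lies alone on chromosome 8, from 158415719 to 158417282, and its nearest listed neighbours are 84200 bases before and 94932 bases beyond it. Of the pair of listed genes on either side, only Zm00001d011680 was above 0, with an RPKM of 16.5, 17.4 and 17.9.

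**Figure D3:**
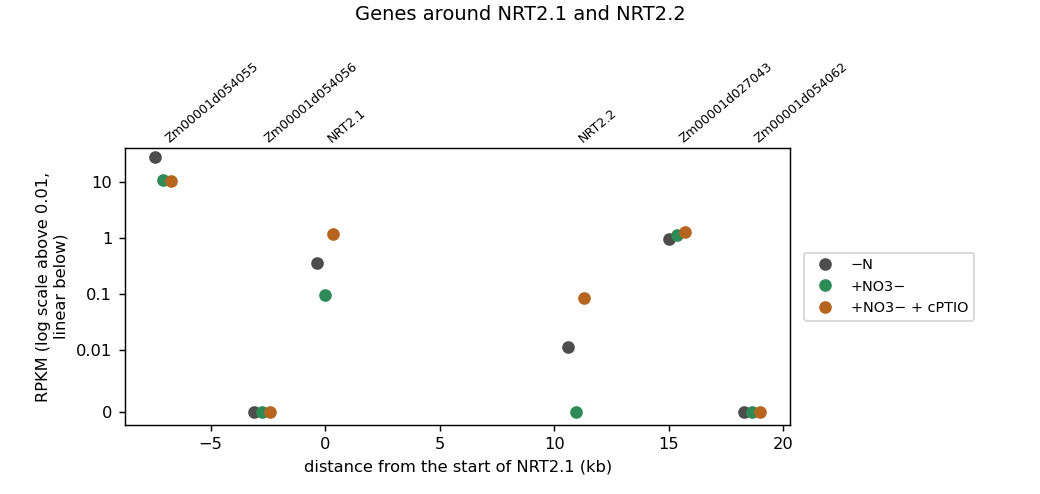
RPKM (vertical axis, logarithmic above 0.01 and linear below) of NRT2.1, NRT2.2 and the nearest pair of listed genes on either side, placed by the distance of their start from that of NRT2.1 (kb), with points for the treatments set slightly apart. NRT2.1 and NRT2.2 were highest in +NO3− + cPTIO, Zm00001d054055 was highest in −N at 27.9, and Zm00001d054056 and Zm00001d054062 are at 0.

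The other genes of nitrate assimilation that could be named were those listed by the study under nitrogen metabolism or ammonium transport, 7 in all. The study selected and grouped them by their response to nitrate and to cPTIO in these samples, so neither their direction with nitrate nor their level under the scavenger is independent evidence, and their counts and medians describe the list only. Between +NO3− and −N, 4 of the 7 were over 2-fold higher and 3 were over 2-fold lower, beside 5.24% and 2.54% of all genes counted. The median log2 ratio was 1.39, beside 0.04 over the genes counted that were above 0 in both conditions. The 4 that were higher encode enzymes. Zm00001d018161, a nitrite reductase, had an RPKM of 0.820 in −N, 16.3 in +NO3− and 29.3 in +NO3− + cPTIO, a log2 ratio of 4.32 for nitrate and 0.84 for the addition of cPTIO. The nitrate reductase Zm00001d049995 had 0.291, 1.77 and 2.23, and the nitrate reductase Zm00001d018206 had 1.44, 4.06 and 4.66. These enzymes stood opposite to the NRT2 genes with nitrate alone. Zm00001d044096, a carbonic anhydrase, had an RPKM of 3.78, 9.91 and 13.4. None of these 4 enzyme genes was over 2-fold away from +NO3− in +NO3− + cPTIO, with log2 ratios from 0.20 to 0.84.

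The 3 ammonium transport genes, of which Zm00001d017249 is named outside the rule to complete the group, had the direction of NRT2.1 in the first and second comparisons. Zm00001d034782 had an RPKM of 8.57 in −N, 2.95 in +NO3− and 13.9 in +NO3− + cPTIO, Zm00001d017249 had 2.81, 0.645 and 2.09, and Zm00001d025831 had 8.72, 3.91 and 7.26. Between +NO3− + cPTIO and +NO3−, Zm00001d034782 and Zm00001d017249 were over 2-fold higher and Zm00001d025831 was not, with log2 ratios of 2.24, 1.69 and 0.89. All 3 were within 2-fold of −N under cPTIO. Over the 7 genes, the median log2 ratio between +NO3− + cPTIO and +NO3− was 0.84, beside −0.07 over genes counted that were above 0 in both conditions. Of the 7, 2 were over 2-fold higher and 0 lower, beside 7.08% and 12.7% of all genes counted. Against −N the median under the scavenger was 1.69, beside −0.03 over genes counted that were above 0 in both conditions. Here 4 of the 7 were over 2-fold higher and 0 lower, beside 8.33% and 9.21% of all genes counted. Since the list was chosen on this response, nothing is read from these shares.

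**Figure D4:**
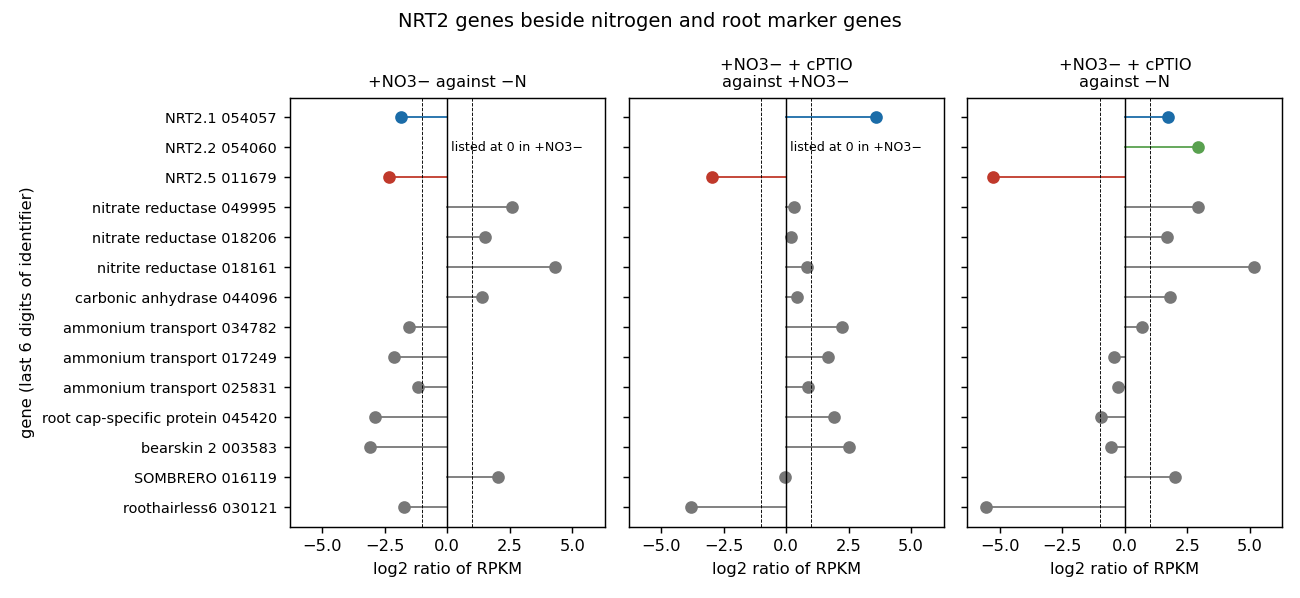
Log2 ratios of RPKM in the 3 comparisons for the NRT2 genes (coloured), the 7 nitrogen genes and the 4 root marker genes (grey), with 2-fold marked by dashed lines. NRT2.1 lies on the side of the ammonium transport genes in the left and middle panels, NRT2.5 on that of roothairless6 in all panels, and nitrite reductase Zm00001d018161 is the highest with nitrate at 4.32.

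Genes that mark root tissues were examined beside the members. The root cap genes were all detected: the root cap-specific protein gene Zm00001d045420 had an RPKM of 44.7, 6.04 and 23.0 in −N, +NO3− and +NO3− + cPTIO, bearskin 2 (Zm00001d003583) had 1.77, 0.207 and 1.19, and SOMBRERO (Zm00001d016119) had 1.17, 4.77 and 4.65. The former pair was thus lower with nitrate and higher again with the scavenger, as NRT2.1 was, and SOMBRERO was not. Unlike NRT2.1, both genes of the pair stayed below their −N value under the scavenger. For root hairs, roothairless6 (Zm00001d030121), which is needed for hair elongation, had 7.90, 2.39 and 0.170. Its log2 ratios were −1.72, −3.82 and −5.54, in the same directions as the −2.32, −2.97 and −5.29 of NRT2.5. The study grouped the former pair and roothairless6 by their response to nitrate and to cPTIO in these samples. Their likeness to NRT2.1 and NRT2.5 is therefore not independent evidence. The part of root cap or root hair cells in the values of NRT2.1 and NRT2.5 was not tested.

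The genes whose pattern was most like that of a member were found by the distance between their log2 ratios for nitrate and for the addition of cPTIO. The search covered 21578 genes above 0 in the 3 conditions that reached an RPKM of 1 in at least 1 of them. NRT2.1 reached this minimum only in +NO3− + cPTIO and NRT2.5 only in −N. With only 3 conditions, such a likeness is a description of these values. For NRT2.1 they were Zm00001d037182 on chromosome 6, with an RPKM of 8.23, 1.94 and 22.8 and a distance of 0.219, and Zm00001d022797 on chromosome 1, with 1.19, 0.380 and 4.13 and a distance of 0.252. For NRT2.5 they were Zm00001d019398 on chromosome 7, with 5.54, 0.994 and 0.121 and a distance of 0.172, and Zm00001d053304 on chromosome 4, with 1.44 in −N, 0.0432 in +NO3− + cPTIO, a log2 ratio of −2.13 between +NO3− and −N, and a distance of 0.199. The sources used here give no names for these genes. The fourth gene in the order for NRT2.5, singled out after its values were seen because the study names it, was actin depolymerizing factor 13 (Zm00001d017516), which acts on actin filaments. It had an RPKM of 18.3, 4.27 and 0.598 and a distance of 0.260. NRT2.2, listed at 0 in +NO3−, has no such distance.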

How the data were processed

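Reads from 9 libraries were trimmed by the authors with Trimmomatic 0.33, mapped to B73 RefGen_v4 (AGPv4) with TopHat2 2.0.13 and quantified with Cuffdiff of Cufflinks 2.2.1, with quartile normalization and correction for multi-mapped reads. The deposited values are RPKM, 1 per gene and condition. The authors state that 2 of the 3 +NO3− + cPTIO libraries were kept. Counts and depth per library are not part of these values.

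Ratios were computed without a pseudocount (Python 3.11.15, pandas 2.3.3, NumPy 2.4.6). Background counts used genes that reached 1 RPKM in either of the conditions compared, and genes at 0 in one condition counted as past 2-fold. Named genes were the members, the reductase, carbonic anhydrase and root marker genes the study annotates, the 2 ammonium transport genes with the highest RPKM, 2 listed neighbours on each side, and the 2 genes nearest in pattern. Of the planned gene groups, those to be named through RefSeq were not used, because 0 of its 49888 rows hold an identifier of the deposited table. Members and lists were chosen with earlier results of these data known, and level classes and the detection level were chosen after seeing the data. Steps were tested on simulated data with large planted changes and little noise, among genes of at least 1 RPKM in −N. That checked the code only and does not bear on ratios at lower levels. Alternatives covered pseudocounts, scaling, RPKM minimum and fold limit.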

Additional observations from a re-analysis of the deposited data

How the results depend on the processing

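No paired analysis was possible because each condition has a single pooled value, and for the same reason no library could be left out. Of 44 alternatives of the NRT2 log2 ratios, 26 stayed within 1.5-fold of the main value, 18 moved further and 0 changed direction. Both rescalings of the conditions and, for NRT2.1, the sum with NRT2.2 moved none of them further. The rescalings shifted log2 ratios by at most 0.056, and NRT2.2 was at most 7.41% of NRT2.1, so these could hardly move a ratio. A pseudocount cannot change a direction. The absence of changes in direction is therefore not evidence that the ratios are stable. A pseudocount moved the ratios toward 0 by construction. For +NO3− against −N, a pseudocount of 0.1 gave −1.21 for NRT2.1 and −1.24 for NRT2.1 with NRT2.2, and a pseudocount of 1 gave −0.31 and −0.32, and −1.08 for NRT2.5. For +NO3− + cPTIO against +NO3−, a pseudocount of 0.1 gave 2.68 for NRT2.1, 2.78 for the sum and −1.70 for NRT2.5, and one of 1 gave 0.98, 1.04 and −0.40. For +NO3− + cPTIO against −N, a pseudocount of 0.1 gave 0.74 for NRT2.2 and −3.76 for NRT2.5, and one of 1 gave 0.68 for NRT2.1, 0.72 for the sum, 0.10 for NRT2.2 and −1.48 for NRT2.5. In this comparison the sum with NRT2.1 took NRT2.2 from 2.92 to 1.77.

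The counts of genes past 2-fold were 1657 for +NO3− against −N, 4271 for +NO3− + cPTIO against +NO3− and 3737 for +NO3− + cPTIO against −N. In the same order they were 4303, 7490 and 6872 with an RPKM minimum of 0.1, 699, 2426 and 2096 with a minimum of 5, 7536, 10621 and 9964 with none, 3656, 7951 and 7338 with a limit of 1.5-fold, and 844, 2797 and 2482 with a pseudocount of 1. Of 36 alternatives of the counts by direction, 28 moved by over 1.5 times. The 2 genes nearest in pattern to NRT2.1 and to NRT2.5 were the same with an RPKM minimum of 0.1.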

Other observations

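The smallest values above 0 differed between the treatments. Among genes with a span within 10% of that of the NRT2 genes, the median of the 10 smallest RPKM was 1.61 times higher in +NO3− + cPTIO than in −N and 1.68 times higher than in +NO3−. The number of genes above 0 was 29589 in −N, 30266 in +NO3− and 28875 in +NO3− + cPTIO.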
